A study of Oryza sativa Japonica Group with 12 samples.

Results

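The Lhcb genes encode the light-harvesting antenna of photosystem II, and 8 of their rows were followed in leaf RNA of rice, out of 38978 rows in the deposited count table. The members were chosen by locus ID. The table holds IDs alone and the RefSeq gene table at hand contained 0 of the 8 IDs, so the names Lhcb1 to Lhcb6 are those given with the choice of members. Lhcb1 was represented by Os09g0346500, Os01g0600900 and Os01g0720500, Lhcb2 by Os03g0592500, Lhcb3 by Os07g0562700, Lhcb4 by Os07g0558400, Lhcb5 by Os11g0242800 and Lhcb6 by Os04g0457000. The first 5 of these rows are the major antenna and the last 3 the minor antenna. All 8 passed the filter on low counts, which left 20217 rows to test.

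Lhcb proteins bind chlorophyll a, chlorophyll b and carotenoids in the thylakoid membrane and pass absorbed light energy to the photosystem II core. Lhcb1, Lhcb2 and Lhcb3 form the trimers of the major complex, which holds much of the leaf's chlorophyll b. Lhcb4 (CP29), Lhcb5 (CP26) and Lhcb6 (CP24) are monomers that sit between the trimers and the core. All are made from nuclear genes, and their transcripts respond to light, to the circadian clock and to signals from the plastid.

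There were 12 libraries, 4 from each of 3 groups. The WT group was unmodified Nipponbare, a japonica cultivar. Line7 and Line8 were homozygous lines 7 and 8 of p35s-Ami-YGL1, in which the broadly active 35S promoter drives an artificial microRNA against YGL1, the gene for chlorophyll synthase. All plants were field-grown, and leaves were labelled as taken at 10 in the morning. No age is given and no group carried a control construct, so effects of the microRNA and of making or carrying the transgene cannot be told apart. The labels do not state whether replicates came from separate plants, and the p-values speak only of the spread among these libraries.

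Library totals ran from 14746933 to 19822636 counts. Levels are given as CPM, the counts scaled by edgeR to a common library total after TMM. Os05g0349700, taken as the locus of the target although the files give it no name, averaged 54.7 ± 11.2 CPM (SD, n = 4) over the WT libraries. It averaged 39.4 ± 19.4 CPM over the Line7 libraries and 26.8 ± 4.54 CPM over the Line8 libraries. The library labelled Line7 replicate 2 held 68.1 CPM of it, inside the WT range of 44.2 to 69.1 CPM, where the other Line7 libraries held 27.4 to 34.4 CPM. The target thus goes against the label of this library. Over all rows, the chi-square per degree of freedom between its counts and those of WT replicate 4 was 13.6, the lowest of all 66 pairs of libraries, against 84.2 to 122 with the other Line7 libraries. Whether it is mislabelled was not tested, and every Line7 mean, SE and call over 4 libraries includes it. By the same measure, Line8 replicate 3 stood at 90.2 to 120 from the other Line8 libraries, which stood at 21.2 to 51.6 from each other. WT replicate 1 stood at 56.8 to 66.3 from the other WT libraries, which stood at 15 to 34.5 from each other. Both libraries were still nearest to a library of their own group, and why they stood apart was not tested. A shoot meristem marker ID had 0 counts in every library, which does not exclude a low level. A panicle marker ID had 66 to 221 counts, and all 5 IDs listed for green leaf were counted in every library. These marker IDs were also written down without a table that names them.

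With all 12 libraries, edgeR called neither the well-counted trimer genes nor the well-counted minor gene Lhcb5 in either line. Lhcb4 was higher in Line8, as were the weakly counted rows of Lhcb6 and of Lhcb1 Os01g0720500. Lhcb4 was thus the only well-counted row called, and its call depended on single libraries. In edgeR's quasi-likelihood test, with Benjamini-Hochberg adjustment over all 20217 rows and a threshold of 0.05, 3 of 8 members rose and 0 fell in Line8 against WT. Over all rows, 27.3% were called in Line8, 15.5% higher and 11.8% lower, so the share of members called is to be read against a large background. The median log2 fold change of the 8 members was 0.45, beside -0.07 over all tested rows. In Line7 against WT, edgeR called 0 of the 8, where 6.97% of all rows were called, 5.92% higher and 1.05% lower. Before adjustment, 3 of the 8 had a p below 0.05 in Line7, as had 26.9% of all rows. DESeq2 called 2 members in Line7, beside 15.0% of all rows, and limma-voom called 0, beside 0.109%. Without the library labelled Line7 replicate 2, edgeR called the same 3 members in Line7 that it called in Line8, and the share of all rows called in Line7 was then 25.2%. In bulk leaf RNA, fewer cells of a type and less RNA per cell cannot be told apart.

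**Figure D1:**
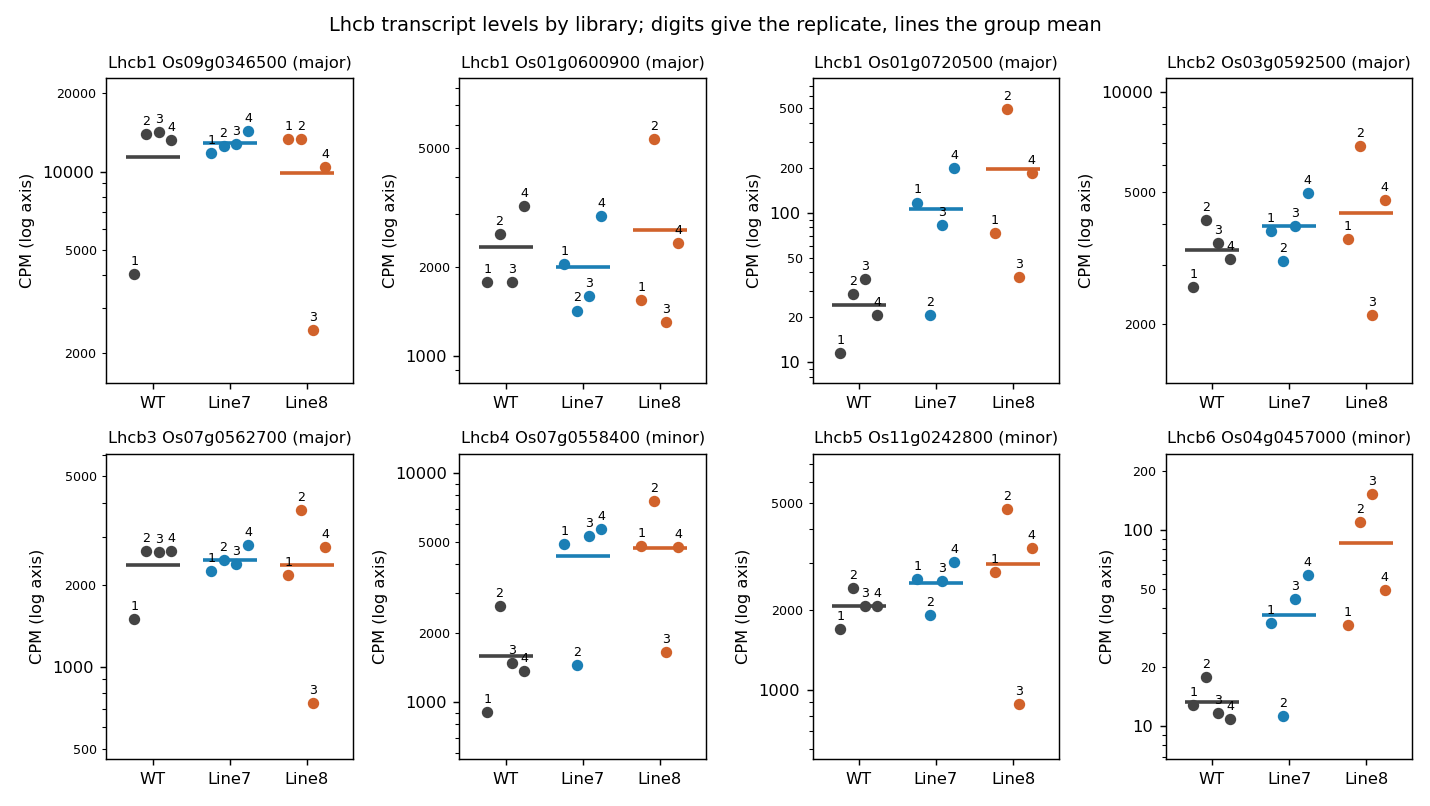
Level of each Lhcb row in CPM (log axis, a different range in each panel) for every WT, Line7 and Line8 library, with the replicate number above each point and a line at the group mean. For Lhcb4, Line7 replicates 1, 3 and 4 and Line8 replicates 1, 2 and 4 lie above every WT library, while the library labelled Line7 replicate 2 and Line8 replicate 3 lie inside the WT range.

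Among the trimer genes, Os09g0346500, the Lhcb1 row with the most counts, held 4045, 13956, 14158 and 13220 CPM in WT replicates 1 to 4. The Line7 libraries held 11812, 12523, 12770 and 14266 CPM. The Line8 libraries held 13326, 13379, 2454 and 10424 CPM. The groups overlapped, and the 2 low values, WT replicate 1 and Line8 replicate 3, belonged to different groups. The log2 fold change was 0.18 (SE 0.466, edgeR adjusted p = 0.839) in Line7 and -0.20 (SE 0.466, adjusted p = 0.776) in Line8. The 95% interval of the Line8 change, from -1.25 to 0.86, leaves room for a change of more than 1 log2 unit downwards. Without Line8 replicate 3 the Line8 value was 0.16, so its sign rested on that library, and without WT replicate 1 the Line7 value was -0.10.

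The other well-counted Lhcb1 row, Os01g0600900, held 1775, 2579, 1779 and 3202 CPM in WT and 2043, 1426, 1592 and 2955 CPM in Line7. In Line8 it held 1550, 5372, 1300 and 2403 CPM, where replicate 2 was the highest of all 12 libraries and replicate 3 the lowest. Its log2 fold change was -0.22 (SE 0.413, edgeR adjusted p = 0.768) in Line7 and 0.19 (SE 0.413, adjusted p = 0.761) in Line8. Without Line8 replicate 2 the Line8 value was -0.40.

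Lhcb2 and Lhcb3, which complete the trimers, likewise overlapped between groups. Lhcb2 held 2587, 4101, 3505 and 3129 CPM in WT, 3818, 3087, 3940 and 4969 CPM in Line7, and 3605, 6853, 2123 and 4723 CPM in Line8. Its log2 fold change was 0.25 (SE 0.309, edgeR adjusted p = 0.640) in Line7 and 0.38 (SE 0.309, adjusted p = 0.380) in Line8. Lhcb3 held 1498, 2658, 2649 and 2661 CPM in WT, and 2257, 2466, 2394 and 2790 CPM in Line7, a tight group. In Line8 it held 2169, 3770, 736 and 2757 CPM, with replicate 3 below every other library. Its log2 fold change was 0.07 (SE 0.374, adjusted p = 0.931) in Line7 and -0.01 (SE 0.374, adjusted p = 0.993) in Line8. The 95% intervals of Lhcb3 ran from -0.78 to 0.91 in Line7 and from -0.85 to 0.84 in Line8. These 4 trimer rows thus missed the threshold with intervals too wide to show that they stayed level.

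The third Lhcb1 row, Os01g0720500, had few counts. It held 11.6, 28.7, 36.2 and 20.8 CPM in WT, from 195 to 590 counts per library. In Line7 it held 117, 20.8, 82.6 and 201 CPM, so that replicates 1, 3 and 4 lay above every WT library and replicate 2 inside the WT range. In Line8 it held 73.7, 495, 37.1 and 185 CPM, all above every WT library. The spread within Line8 was large, with replicate 2 at 13.4 times replicate 3. Line8 exceeded WT by 3.02 log2 units (SE 0.788, edgeR adjusted p = 0.0147) and Line7 by 2.11 (SE 0.762, adjusted p = 0.101). The call in Line8 held with each of the 12 libraries left out in turn (log2 fold change 2.03 to 3.41, adjusted p from 0.00597 to 0.0449). Of the counts of all 3 Lhcb1 rows together, it took 0.182 ± 0.0427% (SD, n = 4) for WT, 0.678 ± 0.425% for Line7 and 1.37 ± 0.889% for Line8. How reads shared by similar copies were counted is not given in the sources used here, so counts of the Lhcb1 rows may have been split between them.

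Among the minor antenna genes, Lhcb4, which links the trimers to the core, held 905, 2642, 1477 and 1367 CPM in WT. In Line7 it held 4882, 1457, 5307 and 5685 CPM, and in Line8 4816, 7564, 1660 and 4774 CPM. In each line 3 of 4 libraries stood above every WT library and the remaining one, the library labelled Line7 replicate 2 or Line8 replicate 3, stood inside the WT range. The mean of Line8 was 2.94 times that of WT and the mean of Line7 2.71 times. Line8 exceeded WT by 1.56 log2 units (SE 0.494, edgeR adjusted p = 0.0336) and Line7 by 1.44 (SE 0.492, adjusted p = 0.0889). Without the library labelled Line7 replicate 2 the Line7 value was 1.73 (adjusted p = 0.0134), and without Line8 replicate 3, which is not in that comparison but shares the estimate of spread, it was 1.45 (adjusted p = 0.0481).

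The Lhcb4 call in Line8 depended on single libraries. The adjusted p rose to 0.0803 without WT replicate 1, 0.0804 without WT replicate 3, 0.083 without WT replicate 4, 0.0565 without Line8 replicate 1, 0.0873 without Line8 replicate 2 and 0.0639 without Line8 replicate 4. The log2 fold change itself stayed between 1.24 and 1.92 with any 1 of the 12 libraries left out. Because the adjustment runs over all tested rows, such a loss depends on the other rows as well as on Lhcb4.

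Lhcb5, the other minor protein with many counts, held 1696, 2419, 2063 and 2059 CPM in WT, 2610, 1916, 2565 and 3019 CPM in Line7, and 2778, 4782, 884 and 3402 CPM in Line8. In Line8 replicates 1, 2 and 4 lay above every WT library and replicate 3 below every one. Line8 exceeded WT by 0.52 log2 units (SE 0.373, edgeR adjusted p = 0.311) and Line7 by 0.30 (SE 0.373, adjusted p = 0.645), and neither passed the threshold. Without Line8 replicate 3 the Line8 value was 0.87 (adjusted p = 0.0197), which did pass.

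The Lhcb6 row was counted thinly for a gene of the antenna, with 175 to 329 counts per WT library where the Lhcb4 row had 15180 to 48759. Whether the row holds all reads of the gene was not tested, so its values and its call speak for the row and not for the whole Lhcb6 transcript pool. These are counts that are not divided by transcript length, since no length was paired with these IDs. Lhcb6 held 12.9, 17.8, 11.6 and 10.9 CPM in WT and 33.7, 11.3, 44.3 and 58.8 CPM in Line7, with the library labelled Line7 replicate 2 again inside the WT range. In Line8 it held 32.6, 110, 152 and 49.4 CPM, all above every WT library. Line8 replicate 3, which held the lowest CPM of Os09g0346500, Os01g0600900, Lhcb2, Lhcb3 and Lhcb5 among all 12 libraries, held the highest CPM of Lhcb6. Line8 exceeded WT by 2.69 log2 units (SE 0.521, edgeR adjusted p = 0.00399) and Line7 by 1.47 (SE 0.503, adjusted p = 0.088). The Line8 call held with each of the 12 libraries left out in turn (log2 fold change 2.31 to 3.01, adjusted p from 0.000525 to 0.0163). In Line7 it was 1.77 (adjusted p = 0.0112) without replicate 2.

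In Line8, 2 of the 8 members, Os01g0720500 and Lhcb6, did not overlap WT, both higher, where 16.1% of all tested rows were higher and 14.9% lower without overlap. For both, the exact two-sided permutation test of log2 CPM gave p = 0.0286, the smallest that 4 against 4 libraries allow, and Lhcb4 gave p = 0.0571. In Line7, 0 of the 8 were free of overlap, beside 4.71% of rows that were higher without overlap and 6.46% that were lower. The permutation p there was 0.0857 for Lhcb4 and Os01g0720500 and 0.114 for Lhcb6, among 24 such tests, which are not adjusted.

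**Figure D2:**
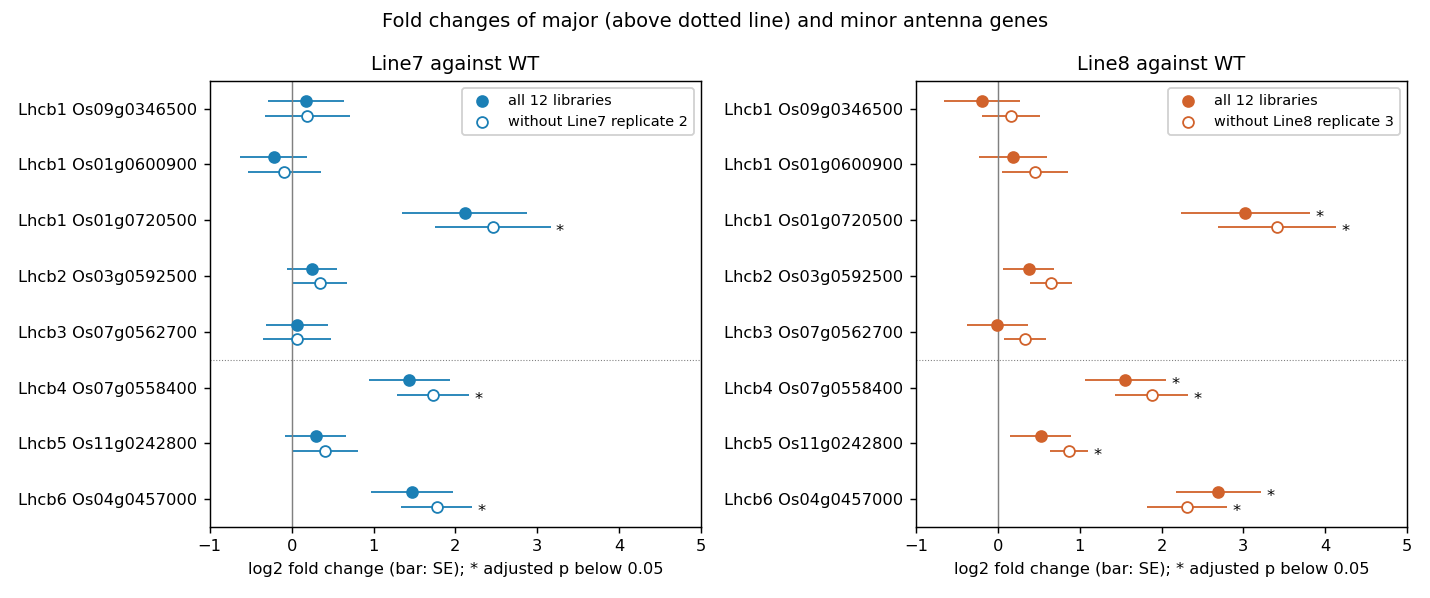
Log2 fold change against WT of each Lhcb row, with its SE, in Line7 (left) and Line8 (right), from all 12 libraries (filled) and without the library labelled Line7 replicate 2 or Line8 replicate 3 (open). Lhcb4, Lhcb6 and Os01g0720500 lie to the right of 0 by more than 1 log2 unit in every case, while the other 5 rows lie within 1 unit of 0.

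The comparison of major with minor antenna was also made inside each library, where the scaling of libraries has no part. Summed counts of the 5 major rows were 3.79, 4.59, 6.23 and 6.47 times those of the 3 minor rows in WT replicates 1 to 4. The ratio was 2.66, 5.77, 2.63 and 2.87 in Line7 and 2.72, 2.40, 2.47 and 2.49 in Line8. Every Line8 library lay below every WT library, as did Line7 replicates 1, 3 and 4. Group means were 5.27 ± 1.29 (SD, n = 4) for WT, 3.48 ± 1.53 for Line7 and 2.52 ± 0.138 for Line8. Line8 replicate 3, whose levels were low in several rows but not in Lhcb6, had a ratio like that of the other Line8 libraries. Its sums differed from theirs. Its major rows summed to 6651 CPM, below every WT library, and its minor rows to 2697 CPM, inside the WT range. In Line8 replicates 1, 2 and 4 the minor rows summed to 7626 to 12455 CPM, above the WT range of 2615 to 5079 CPM. The library labelled Line7 replicate 2 had a ratio inside the WT range. The ratio leans on Lhcb4, whose mean went from 1598 CPM over WT to 4704 CPM over Line8. Lhcb5 went from 2059 to 2961 CPM, and Lhcb6 from 13.3 to 86.1 CPM, too little to weigh in the sum. A ratio without Lhcb4 was not taken, so the gap between Line8 and WT does not speak for the minor rows as a class. The ratio is a score over members chosen with earlier results of these data known, so it is given without a p-value.

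**Figure D3:**
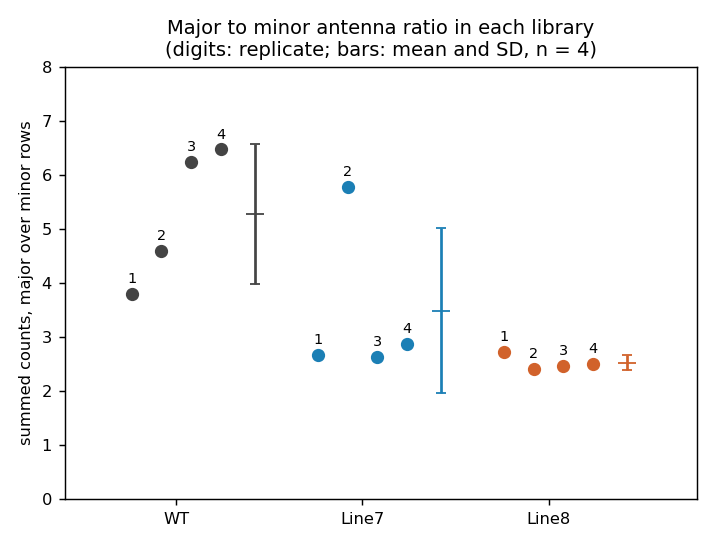
Summed counts of the major rows divided by those of the minor rows in each library, with replicate numbers above the points and the mean and SD of each group at its right. The 4 Line8 libraries sit between 2.40 and 2.72, below the WT libraries at 3.79 to 6.47, and the library labelled Line7 replicate 2 sits at 5.77.

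Summed levels were also taken for each side of the ratio. The major rows summed to 19400 ± 6345 CPM (SD, n = 4) for WT, 21383 ± 2584 for Line7 and 19434 ± 9575 for Line8. The minor rows summed to 3671 ± 1028 CPM for WT, 6897 ± 2398 for Line7 and 7751 ± 3996 for Line8. Because these sums are dominated by the rows with most counts, the fold changes were also averaged by row. The mean log2 fold change of the major rows was 0.68 in Line8 and 0.48 in Line7, and that of the minor rows was 1.59 and 1.07. The major means rest largely on Os01g0720500, and the medians of the major rows were 0.19 in Line8 and 0.18 in Line7, against 1.56 and 1.44 for the minor rows. The minor medians are the values of Lhcb4. The minor means lean on the thinly counted Lhcb6 row, at 2.69 in Line8 and 1.47 in Line7, where Lhcb5 was at 0.52 and 0.30. A minor mean without Lhcb6 was not taken. It would be lower, since Lhcb6 was the highest minor row in both lines, and the major minus minor difference would shrink. Leaving Os01g0720500 out, a choice made after its value was seen, moved the major minus minor difference in Line8 from -0.92 to -1.50, and in Line7 from -0.59 to -1.001.

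Lhcb4 was also set against Lhcb5 and Lhcb3 inside each library. The ratio of Lhcb4 to Lhcb5 counts was 0.534, 1.09, 0.716 and 0.664 in WT, 1.87, 0.76, 2.07 and 1.88 in Line7, and 1.73, 1.58, 1.88 and 1.40 in Line8. Every Line8 library stood above every WT library, replicate 3 included, and the library labelled Line7 replicate 2 stood with WT. Against Lhcb3, a trimer gene, the ratio of Lhcb4 was 0.604, 0.994, 0.558 and 0.514 in WT, 2.16, 0.591, 2.22 and 2.04 in Line7, and 2.22, 2.01, 2.26 and 1.73 in Line8. Here too every Line8 library stood above every WT library, and the library labelled Line7 replicate 2 stood inside the WT range. The ratio of Lhcb5 to Lhcb3 was 0.899 ± 0.168 (SD, n = 4) for WT, 1.02 ± 0.168 for Line7 and 1.25 ± 0.0358 for Line8. The lowest Line8 value of that ratio was 1.20 and the highest WT value 1.13. These 3 ratios were chosen after the levels were seen and are given without a test. Other member ratios were also taken. Os09g0346500 to Lhcb2 (WT 1.56 to 4.23, Line8 1.16 to 3.70) and Lhcb2 to Lhcb3 (WT 1.18 to 1.73, Line8 1.66 to 2.89) overlapped between the groups. Os01g0720500 to Os01g0600900 did not (WT 0.0065 to 0.0204, Line8 0.0285 to 0.0922).

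**Figure D4:**
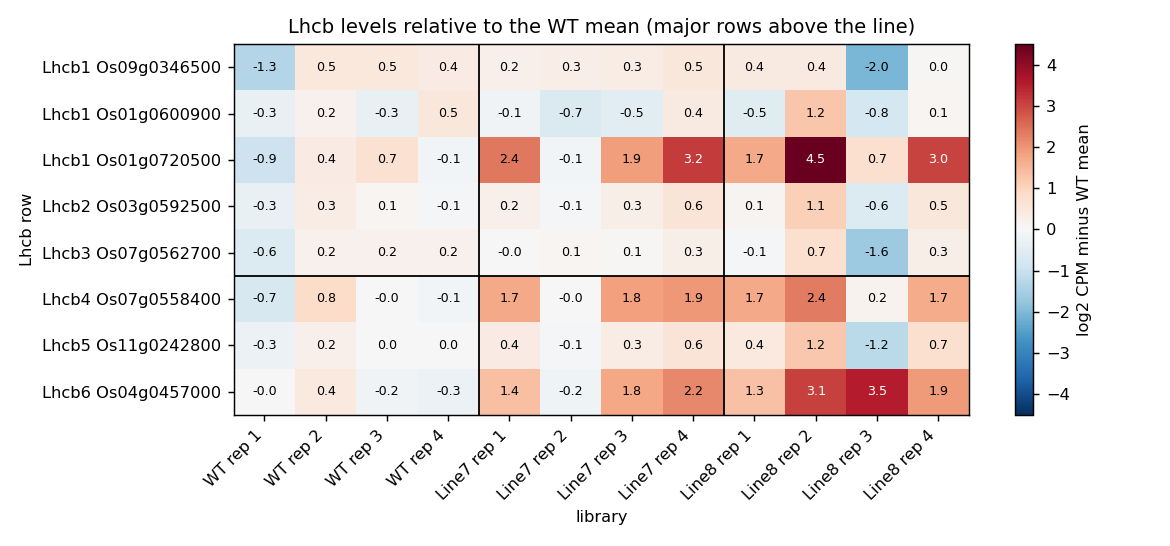
Log2 CPM of each Lhcb row (vertical axis) in each library (horizontal axis) minus the WT mean of that row, with major rows above the horizontal line. Line8 replicate 3 is at -2.05 for Os09g0346500 and at 3.53 for Lhcb6, and the library labelled Line7 replicate 2 lies between -0.66 and 0.30 in all rows.

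The members also differed in how evenly they were expressed among replicates. In WT the coefficient of variation of CPM over the 4 libraries was 14.3% for Lhcb5, 19.1% for Lhcb2 and 23.5% for Lhcb6. It was 43% for Os09g0346500, 43.4% for Os01g0720500 and 46.2% for Lhcb4. In Line7 it ran from 8.04% for Os09g0346500 and 9.13% for Lhcb3 to 54.1% for Lhcb6 and 71.3% for Os01g0720500, with 34.2% for Os01g0600900 and 44.9% for Lhcb4. The Line7 values include the library labelled Line7 replicate 2. That library held 1457 CPM of Lhcb4, where replicates 1, 3 and 4 held 4882, 5307 and 5685 CPM. In Line8 it ran from 46.1% for Lhcb2 to 105% for Os01g0720500. Line8 replicate 2 held the highest CPM of 7 of the 8 rows in its group, and replicate 3 the lowest of 7 of 8, with Lhcb6 the exception both times.

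For the mean of both lines against WT, the same 3 members rose and 0 fell by edgeR, where 24.3% of all rows were called, 14.2% higher and 10.1% lower. Log2 fold changes were 2.57 (SE 0.724, adjusted p = 0.0235) for Os01g0720500, 1.50 (SE 0.449, adjusted p = 0.0301) for Lhcb4 and 2.08 (SE 0.472, adjusted p = 0.00923) for Lhcb6. Lhcb6 passed with each of the 12 libraries left out. The call of Os01g0720500 was lost without WT replicate 1, 2, 3 or 4 (adjusted p = 0.0652, 0.0545, 0.0522 and 0.0652). That of Lhcb4 was lost without WT replicate 1, 3 or 4 (0.0828, 0.0881 and 0.0808) and without Line7 replicate 1, 3 or 4 (0.0512, 0.053 and 0.0522). Lhcb5, at 0.41 (adjusted p = 0.379), passed without Line8 replicate 3 (0.59, adjusted p = 0.0441).

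The lines themselves were compared directly. In Line8 against Line7 edgeR called 0 of the 8 members, and DESeq2 and limma-voom also called 0. Over all rows 0.0247% were called by edgeR, 2.34% by DESeq2 and 0.00989% by limma-voom. Before adjustment 1 member, Lhcb6, had a p below 0.05, beside 16.2% of all rows. Lhcb6 differed by 1.22 (SE 0.494, 95% interval 0.10 to 2.34, edgeR adjusted p = 0.268), higher in Line8. Lhcb4 differed by 0.12 (95% interval -0.97 to 1.21) and Os01g0720500 by 0.91 (95% interval -0.75 to 2.57). The intervals do not show that the lines act alike. Line7 and Line8 share the WT libraries as their control.

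Other genes around the antenna were taken as short lists of locus IDs that no table at hand names, so they are given as counts without single genes. They were chosen with earlier results of these data known. Their counts stand beside the 27.3% of all rows called in Line8 and the 6.97% called in Line7, and with 1 to 6 tested IDs a list no single count is a result about its list. Of 6 IDs listed for the photosystem I antenna, which surrounds the other photosystem, all were tested, and 2 rose and 0 fell in Line8 by edgeR, with a median log2 fold change of 0.81. In Line7 1 rose and 0 fell, with a median of 0.73. Of 2 IDs listed for PsbS, which senses lumen acidity in the quenching of excess light, 1 fell and 0 rose in Line8 (median -1.15) and 0 were called in Line7 (median -0.65). Of 5 IDs for chlorophyll b synthesis and breakdown, 4 were tested, with 2 higher and 1 lower in Line8 and 1 higher and 0 lower in Line7. Of 2 IDs for the chloroplast signal recognition particle that brings antenna proteins to the thylakoid, 1 was tested and was higher in both lines (log2 fold change 1.82 in Line8 and 0.99 in Line7). Of 2 IDs for GLK factors, which activate antenna genes, 1 fell in Line8 (median -0.55) and 0 were called in Line7 (median -0.38). The green leaf IDs gave 2 higher and 1 lower of 5 in Line8, and 0 higher and 1 lower in Line7. The panicle marker was not called in either line.

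The rows whose pattern was most like the family mean were found by the Pearson correlation of log2 CPM with the mean log2 CPM of the 8 members over the 12 libraries. They were Os08g0560900 (0.972), Os11g0267000 (0.968) and Os03g0778100 (0.967). On average Os08g0560900 held 1005 CPM over WT, 1244 CPM over Line7 and 1445 CPM over Line8. The 12 points share 3 groups, the library scaling and the same low and high libraries, so these values describe likeness in these libraries and carry no test.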

How the data were processed

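The authors deposited whole-number counts per annotated gene, with 1 column per library. No source used here gives the aligner, counter, genome build or strandedness, so reads of overlapping, antisense or near-identical genes cannot be told apart. Samples were grouped by title, and each of 12 columns matched 1 description. Over 66 pairs of libraries, chi-square per degree of freedom was 13.6 or more, the lowest being WT replicate 4 against the library labelled Line7 replicate 2, so none was counted as a duplicate.

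The analysis used edgeR 4.0.16 under R 4.3.3: filterByExpr (20217 of 38978 rows), TMM, robust glmQLFit on all 12 libraries with group as factor, glmQLFTest, and Benjamini-Hochberg adjustment over all tested rows at 0.05. SEs come from the fold change and F, and 95% intervals use 9 residual degrees of freedom. log2 CPM used a prior count of 2. The common biological coefficient of variation was 32.2%. The fits were also run on simulated counts that held no mislabelled or outlying library. That run therefore does not bear on calls that turn on such libraries.

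Alternatives were RLE, upper-quartile and library-size scaling, 2 other filters, DESeq2 1.42.0, limma-voom (limma 3.58.1), fits with only the groups compared, a replicate block, and each library left out. Added after the data were seen were leaving out the library labelled Line7 replicate 2 and Line8 replicate 3 together, and the major mean without Os01g0720500. All 8 members were named. Of other genes, the target ID and the 3 rows most like the family mean were named. Members and lists were chosen with earlier results of these data known.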

Additional observations from a re-analysis of the deposited data

Results flagged for a closer look

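Of 27 groups of 4 values screened (8 rows and the major to minor ratio, in 3 groups), 3 held a value far from the other 3 by Dixon's criterion. Chance flags about 1 in 20 groups. In WT, replicate 1 held 4045 CPM of Lhcb1 Os09g0346500, where the next lowest library held 13220 CPM. The same library held 1498 CPM of Lhcb3 Os07g0562700, where the next lowest held 2649 CPM. In Line7, replicate 2 had a major to minor ratio of 5.77, where the next highest was 2.87.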

How the results depend on the processing

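In Line8 against WT, 3 members were called, and 2 to 4 under the 22 alternatives. In Line7 the count was 0, with 2 by DESeq2, 3 without the library labelled Line7 replicate 2 and Line8 replicate 3 together, and 0 to 3 with single libraries left out. Averaging the lines gave 3, and 1 to 4 with single libraries left out. The Line8 calls of Lhcb6 and Os01g0720500 held in all 22 alternatives. The number of rows called over the whole table also changed with these settings in Line7, from 1409 to 3024 by DESeq2, 22 by limma-voom and 5156 without the library labelled Line7 replicate 2.

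Deviations of same-numbered libraries from their group means correlated at -0.387 to 0.332. Line7 replicates 1, 2 and 4 correlated best with their own number in Line8, and replicate 3 did not. Of the WT libraries, only replicate 1 against Line7 and replicate 2 against Line8 did so. With 4 libraries a group, these values cannot decide whether the replicate numbers pair the libraries. With the replicate block, 2 members were called in Line8, the adjusted p of Lhcb4 being 0.0664 there and 0.0513 over both lines. In Line8 against Line7, Lhcb4 was then -0.032.

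The major minus minor difference moved with Os01g0720500 left out, to -1.50 in Line8 and -1.25 over both lines. The difference loses that row's high fold change by construction. The thinly counted Lhcb6 row, high on the minor side, was not left out in the same way, which would shrink the difference.

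All log2 fold changes that reversed belonged to rows that missed the threshold before and after. In Line8, Lhcb3 was 0.015 with RLE and 0.015 with DESeq2, 0.034 with the filter of 1 CPM in 4 libraries, 0.043 with only the groups compared, and 0.34 without the library labelled Line7 replicate 2 and Line8 replicate 3, where Os09g0346500 was 0.17. With upper-quartile scaling, Lhcb3 was -0.0021 in Line7. With single libraries left out, the Line7 values ran from -0.10 to 0.27 for Os09g0346500 and from -0.10 to 0.14 for Lhcb3. The Line8 values ran from -0.48 to 0.16 for Os09g0346500, from -0.40 to 0.46 for Os01g0600900 and from -0.32 to 0.33 for Lhcb3. Between the lines they ran from -0.041 to 1.44 for Os01g0720500 and from -0.17 to 0.43 for Lhcb4. The cause was not tested.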
